A study of Mus musculus with 6 samples.

Results

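The genes described here are 40 mitotic cell cycle genes, given as a list of symbols and matched in the gene table of a single-cell RNA data set of mouse skin. All 40 were found, of 32285 genes in the table. The list holds 28 genes of G2 phase and mitosis, called mitosis genes below, and 12 genes of S phase and its preparation, called S phase genes. A cell was counted as cycling when it held at least 3 unique molecular identifiers (UMIs, each standing for 1 captured transcript) over the 40 genes. The mice were of the Balb/c strain, and all 6 libraries came from skin that the labels call epicutaneously sensitized. Sensitization ran for 10 days and skin was taken 2 days afterwards, digested with enzymes and run on the 10x Genomics 3′ platform (version 2 kit). The 3 libraries named EC-SAL carry the treatment label control, and the 3 named EC-OVA the label OVA-sensitized. No age, sex or genotype was given in the sources used here. The labels also do not say whether the numbered libraries of a group are separate mice, so every p-value measures the spread between libraries, which may be technical.

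As background, a dividing cell first copies its DNA in S phase and then, after G2, separates the copies in mitosis. S phase genes are switched on by E2F transcription factors once the retinoblastoma protein releases them. Genes of G2 and mitosis are kept silent in resting cells by the DREAM complex and are switched on later by B-MYB and FOXM1, often through a CCAAT box and a cell cycle genes homology region (CHR) in the promoter. In skin, the hair matrix and the basal layer of the epidermis renew by division, and most dermal fibroblasts are thought to rest.

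After filtering, 24354 cells were kept, 3408 to 4967 per library, and they fell into 32 clusters. The label CD4 given for the cell type of all libraries went against the data, since markers of keratinocytes, fibroblasts, endothelium, muscle, nerve and several leukocytes each defined clusters. Clusters were named by marker lists, and a class name stands for a marker profile. The deposited matrices held 25350813 to 33650630 UMIs per library. Barcodes over 15% mitochondrial UMIs made up 22.1 to 23.1% of the EC-SAL and 14.1 to 15.2% of the EC-OVA barcodes that had enough genes. Doublets were left out by score (4.2 to 6.39% of cells), because the doublet caller's own threshold marked only 0 to 0.869%. Any 2 libraries shared 33 to 87 cell barcodes, 0.63 to 1.28% of the smaller library.

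Transcripts of the mitosis genes were found together in the same cells, and those of the S phase genes less strictly so. Among cells with at least 3 UMIs of the other members, 6.10% (Bub1) to 29.4% (Cdc20) held a UMI of a given mitosis gene, against 0.0383% (Bub1) to 3.65% (Cenpa) of the remaining cells. These cells carried 86.8% (Kif23) to 98.5% (Bub1) of the UMIs of each mitosis gene. Of the S phase genes other than Pcna, such cells carried 73.0% (Tyms) to 97.1% (Pclaf) of the UMIs, and 0.508% (Ccne2) to 7.70% (Tyms) of the remaining cells held one. Pcna, the sliding clamp of DNA polymerase, which also serves DNA repair, stood furthest apart. A Pcna UMI was present in 73.4% of the cells that cycled by the other members and in 37.7% of those that did not, and only 44.8% of Pcna UMIs lay in the former. The share of cells with at least 3 UMIs is therefore given also for the 28 mitosis genes alone. Over all classes, 3255 cells had exactly 2 UMIs of the 40 genes and fell just outside the definition, and 1649 had exactly 3 and fell just inside.

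Cells of the hair matrix and inner root sheath, the class led by the keratins Krt25, Krt27 and Krt28, carried the most cell cycle transcripts. Averaged over the 6 libraries, 81.2% of these cells were cycling, 62.3% by the mitosis genes alone, and the 40 genes took 3902 UMIs in each 1000000 (CPM). Basal keratinocyte-like cells followed with 50.5% cycling, 27.9% by mitosis genes and 1995 CPM. Upper hair follicle keratinocyte-like cells had 43.2%, 21.0% and 1271 CPM. That class joined cluster 0 (1393 cells), with 734 cycling cells (52.7%), and cluster 21 (532 cells), with 94 (17.7%). By mitosis genes cluster 0 had means of 28.2% in EC-SAL and 27.2% in EC-OVA, and cluster 21 had 2.83% and 3.07%. The cells of 2 clusters that met no class definition had 40.3%, 19.4% and 1599 CPM together, but they were unlike each other. Cluster 14 (969 cells), led by Gjb2, Tagln and Slc7a8, had 505 cycling cells (52.1%), and cluster 23 (325 cells), led by Coch, Crabp1 and Fmod, had 15 (4.62%). Of the 40 genes, 39 had their highest CPM in the hair matrix class, and the other, Kif23, a motor of the central spindle, had 54.3 CPM in lymphoid cells and 48.7 CPM in hair matrix cells.

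Other classes with a large share of cycling cells had few mitosis transcripts. Sebocyte-like cells had 43.9% cycling but 11.0% by mitosis genes and 459 CPM, at a median of 10266 UMIs per cell. Suprabasal keratinocyte-like cells had 28.1%, 3.11% and 277 CPM, and vascular endothelium-like cells 34.1%, 3.1% and 614 CPM. When each cell was thinned to 2000 UMIs, which left out shallower cells, the share fell to 8% in sebocyte-like, 2.44% in suprabasal and 10.0% in vascular cells. It was 69.8% in hair matrix, 28.3% in basal and 21.7% in upper follicle cells after thinning. The plain share moves with depth, and no order of these classes is read from it where it goes against the CPM.

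Among stromal and blood-borne classes, lymphoid cells had 15.3% cycling (6.99% by mitosis genes, 1472 CPM, median 1966 UMIs). Lymphatic endothelium had 27.3% (4.17%, 851 CPM, median 3502 UMIs), dendritic and Langerhans-like cells 20.5% (11.2%, 794 CPM), fibroblasts 12.7% (5.65%, 683 CPM, median 5181 UMIs) and pericytes 14.1% (2.65%, 648 CPM). Free RNA can give such UMIs to cells that do not divide. Pericyte-, Schwann- and neutrophil-like cells had been set as a background, as cells that should hardly divide. The pericyte share was the higher one given above, and its difference between the groups is described below. The share in Schwann-like cells, which rarely divide in grown skin, was taken as the background here. It was 3.18% over the 40 genes and 1.27% over the mitosis genes at a median of 1600 UMIs, and 5.20% over the 40 genes after thinning, which left out 67.6% of Schwann-like cells. This background was itself higher in EC-OVA, at 2.38%, 1.55% and 2.38% in EC-SAL (8 of 381 cells) and 4.88%, 5.26% and 2.63% in EC-OVA (10 of 234 cells), and after thinning the groups overlapped (6.06%, 4% and 2.27% against 2.86%, 9.09% and 6.90%). Of 68 neutrophil-like cells (median 649 UMIs), 1 held 3 UMIs. Cartilage- or tendon-like cells had 6.01% and 0.86%, and 1.27% over the 40 genes after thinning.

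**Figure D1:**
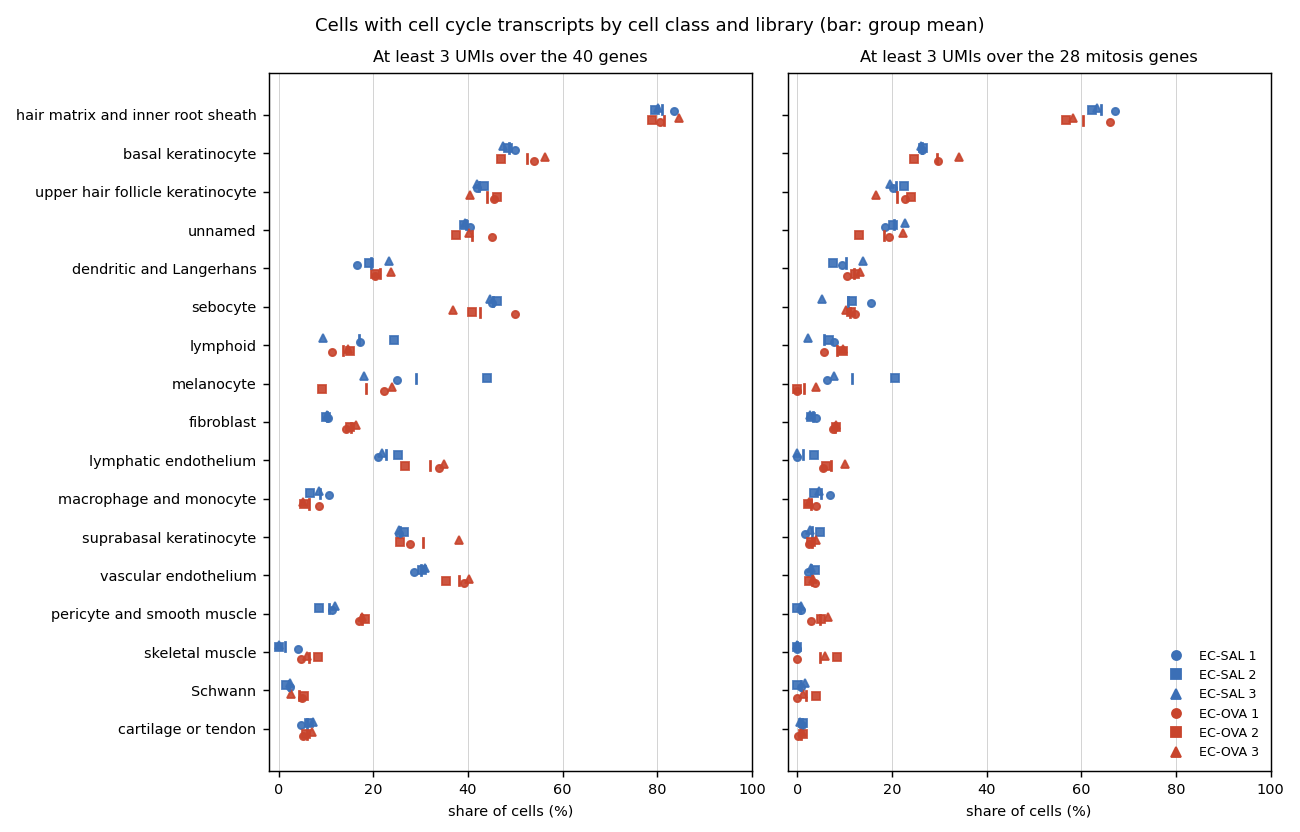
Share of cells (horizontal axis, percent) with at least 3 UMIs over the 40 genes (left) and over the 28 mitosis genes (right), for the 17 classes that held 10 or more cells in every library; points are libraries and bars group means. Hair matrix cells lie between 78.9 and 84.5% in the left panel in all 6 libraries, and fibroblast-, pericyte- and lymphatic-like cells of the EC-OVA libraries lie above those of the EC-SAL libraries in both panels.

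Over all kept cells together, cycling cells were slightly fewer in EC-OVA. The shares were 25.8%, 26.7% and 25.6% in EC-SAL libraries 1 to 3 and 24.5%, 22.1% and 24.7% in EC-OVA libraries 1 to 3, so that the groups did not overlap. The means were 26.0% ± 0.58 and 23.8% ± 1.42 (SD, n = 3 each), a log2 ratio of -0.13. The make-up of the cycling cells differed more. Basal keratinocyte-like cells gave 24.9% of the cycling cells in EC-SAL and 10.7% in EC-OVA, and fibroblasts 7.67% and 17.9%. Basal cells were 13.3% of all kept cells in EC-SAL and 4.85% in EC-OVA, and fibroblasts 19.6% and 28%. With every library given the same mix of classes, the direction of the share turned to 23.4% ± 0.17 in EC-SAL and 26.4% ± 1.46 in EC-OVA.

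In the summed UMIs of all kept cells, 13 of the 40 genes were lower in EC-OVA and none was higher (edgeR's quasi-likelihood test, adjusted p under 0.05), where 22.1% of all genes tested were called lower. The 13 were 7 of the 12 S phase genes and 6 of the 28 mitosis genes. The mitosis part was near the 22.1% of all genes called lower, so the falls of single mitosis genes below are not read as particular to them. Cdca8, a subunit of the chromosomal passenger complex, which corrects the attachment of chromosomes to the spindle, had 37.7, 34.5 and 33.1 CPM in EC-SAL and 24.3, 26.1 and 29.5 CPM in EC-OVA (log2 fold change -0.45, SE 0.072, adjusted p = 0.00143). Mcm2, a subunit of the replicative helicase, had 16.5, 14.8 and 13.7 CPM against 12.6, 11.7 and 12.3 CPM (-0.36, adjusted p = 0.00401). In both genes every EC-OVA library was below every EC-SAL library.

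The next in size were Cdc20, which activates the anaphase-promoting complex (log2 fold change -0.35), Tk1, thymidine kinase (-0.34), and the helicase subunit Mcm5 (-0.34). Cyclin B1 (Ccnb1, -0.33), the chromatin factor Uhrf1 (-0.30) and Mcm6 (-0.29) came next, with adjusted p between 0.00152 and 0.0462 for these 6 genes (edgeR). The groups overlapped for Ccnb1, at 28.1, 25 and 22.6 CPM against 18, 19.8 and 25 CPM. Mki67, the proliferation antigen Ki-67, had 22.4, 19.8 and 19.7 CPM in EC-SAL and 17.9, 18.8 and 19.7 CPM in EC-OVA (-0.19, adjusted p = 0.0356). Top2a, topoisomerase II, changed by -0.16 (adjusted p = 0.0216) and Pcna by -0.22 (adjusted p = 0.0147). In such sums fewer cells of a type and less RNA per cell cannot be told apart, and without EC-SAL library 1 the count of lower genes was 6.

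Fibroblast-like cells, the largest class with 5692 cells, went the other way. Their cycling share was 10.4% (104 of 999 cells, 95% Clopper-Pearson interval 8.59 to 12.5), 9.95% (83 of 834, 8 to 12.2) and 10.1% (80 of 790, 8.11 to 12.4) in EC-SAL libraries 1 to 3. In EC-OVA libraries 1 to 3 it was 14.2% (137 of 966, 12 to 16.5), 15% (169 of 1126, 13.0 to 17.2) and 16.4% (160 of 977, 14.1 to 18.8). All 3 EC-OVA libraries lay above all 3 EC-SAL libraries, with means of 10.2% ± 0.231 and 15.2% ± 1.11 (SD, n = 3 each, log2 ratio 0.58). The share is a count over genes chosen with results known and is given without a test, and its intervals cover counting error only.

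The difference was larger in the mitosis than in the S phase transcripts. By the 28 mitosis genes alone, 4%, 3% and 2.78% of fibroblasts passed the definition in EC-SAL and 7.66%, 8.17% and 8.29% in EC-OVA (log2 ratio 1.30). The summed level of the mitosis genes was 205, 147 and 184 CPM in EC-SAL and 399, 589 and 554 CPM in EC-OVA. That of the S phase genes was 279, 207 and 264 CPM against 311, 310 and 357 CPM. Groups did not overlap for either sum, but the log2 ratio was 1.52 for mitosis genes and 0.38 for S phase genes. Pcna, whose UMIs lay mostly outside cells that cycled by the other members, is a large part of the S phase sum. It did not rise, so it holds down that ratio, and it also enters the shares that follow. Within cycling fibroblasts, mitosis genes gave 48.0% of the UMIs of the 40 genes in EC-SAL and 64.8% in EC-OVA.

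Fibroblasts of the EC-OVA libraries also held more UMIs per cell, with a mean of the library medians of 5942 against 4545 in EC-SAL. After thinning to 2000 UMIs, with 11.4 to 15.6% of cells left out per library, the share was 3.90% ± 0.972 in EC-SAL and 7.69% ± 0.904 in EC-OVA, again without overlap. For the mitosis genes alone the thinned shares were 2.33%, 1.54% and 1.80% in EC-SAL and 4.56%, 5.82% and 5.93% in EC-OVA.

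**Figure D2:**
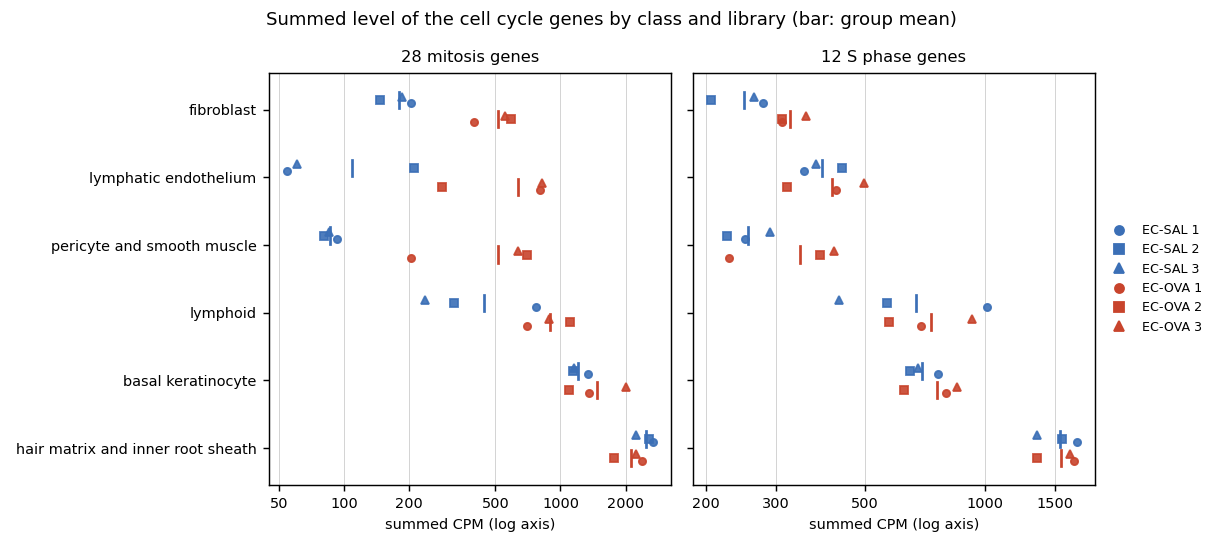
Summed CPM (log axis) of the 28 mitosis genes (left) and the 12 S phase genes (right) in 6 classes; points are libraries and bars group means. In fibroblasts the mitosis genes go from 147 to 205 CPM in EC-SAL to 399 to 589 CPM in EC-OVA, whereas the hair matrix and basal keratinocyte points of the 2 groups overlap in both panels.

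Gene by gene, all 40 members passed the filter on low counts in fibroblasts, and 33 of them reached its minimum in every EC-SAL library. Members that did not, Hmmr, Plk1 and Kif20a among them, passed through the EC-OVA libraries. Their calls and their place in the order of rises are a description. Of the 40, 30 rose in EC-OVA with none falling (edgeR). With doublets kept, where the cluster led by Lrrc15 had no class name, 19 rose, and Hmmr (1.18), Kif20a (0.82) and Mki67 (0.60, adjusted p = 0.128) were not called. Among all genes tested in fibroblasts, 4.73% were called higher and 8.19% were called in either direction. The median log2 fold change was 1.34 over the 40 genes and 0.01 over all genes tested. The 30 were 26 of the 28 mitosis genes and 4 of the 12 S phase genes. For 37 of the 40 genes every EC-OVA library lay above every EC-SAL library after TMM scaling, which held for 13.7% of all genes tested.

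All 7 cyclins, mitotic kinases and their partners rose. Cyclin B2 (Ccnb2), a partner of the kinase Cdk1 at entry into mitosis, had 10.7, 6.07 and 7.81 CPM in EC-SAL libraries 1 to 3 and 31.1, 34.6 and 39.3 CPM in EC-OVA libraries 1 to 3 (log2 fold change 2.09, SE 0.159, adjusted p = 1.21e-05, edgeR). Cyclin B1 (Ccnb1) had 6.69, 3.88 and 6.30 CPM against 12.8, 24.5 and 20.7 CPM (1.80, SE 0.285, adjusted p = 0.00235). The lowest EC-OVA library was above the highest EC-SAL library for both cyclins, by a wider margin for Ccnb2. Plk1, a kinase needed for spindle assembly and mitotic exit, had 2.30, 0.728 and 1.51 CPM against 4.31, 8.50 and 8.03 CPM (2.18, SE 0.399, adjusted p = 0.00561). The other 4 were Cdk1 (1.5), cyclin A2 (Ccna2, 1.71), the spindle kinase Aurka (1.33) and its activator Tpx2 (1.76).

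The passenger complex genes Aurkb, Birc5 and Cdca8 rose by 1.41, 1.38 and 1.11 on the log2 scale. Of 5 centromere and checkpoint genes, 4 rose. Cenpf, a kinetochore protein, had 4.18, 2.91 and 3.53 CPM in EC-SAL and 11.2, 18.4 and 14.3 CPM in EC-OVA (2.06, SE 0.262, adjusted p = 0.000525, edgeR). Cenpa, the centromeric histone, Cenpe, a kinetochore motor, and Bub1b, a checkpoint kinase, rose by 1.59, 1.38 and 1.30. The fifth, the checkpoint kinase Bub1, had 0.628, 1.21 and 2.02 CPM against 2.87, 4.32 and 2.68 CPM and missed the threshold (1.41, adjusted p = 0.0594).

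The 3 genes of anaphase and ubiquitin transfer rose. Ube2c, the ubiquitin-conjugating enzyme of the anaphase-promoting complex, had 11.7, 8.98 and 9.83 CPM in EC-SAL and 26.9, 44.9 and 38.2 CPM in EC-OVA (1.87, SE 0.213, adjusted p = 0.00025, edgeR). Cdca3, a trigger of mitotic entry, had 7.95, 8.74 and 9.07 CPM against 25.2, 34.0 and 32.0 CPM (1.85, SE 0.164, adjusted p = 3.89e-05). The EC-SAL libraries of Cdca3 lay close together and all 3 EC-OVA libraries far above them. Cdc20 rose by 1.28.

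Of 8 genes of spindle motors and cytokinesis, 7 rose. Hmmr, a spindle-associated hyaluronan receptor, showed the largest rise of the 40 genes, from 1.88, 1.46 and 1.01 CPM to 6.22, 9.2 and 5.65 CPM (2.26, SE 0.346, adjusted p = 0.00171, edgeR). The motor Kif20a, which acts in cytokinesis, had 1.26, 1.94 and 1.51 CPM against 4.94, 6.55 and 7.59 CPM (2.04, SE 0.304, adjusted p = 0.00148). Kif11 rose by 1.73, Nusap1 by 1.44, Racgap1 by 1.35, Prc1 by 1.21 and Kif23 by 1.19. Ect2, which activates RhoA at the cleavage furrow, had 2.30, 2.43 and 1.01 CPM against 4.15, 3.90 and 3.87 CPM and was not called (1.04, adjusted p = 0.0562).

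Both genes of chromosome structure rose. Mki67 had 5.65, 2.91 and 5.29 CPM in EC-SAL and 10.4, 17 and 14.7 CPM in EC-OVA (1.62, SE 0.264, adjusted p = 0.00274, edgeR). Top2a had 17.4, 10.4 and 13.4 CPM against 24.1, 35.0 and 29.3 CPM (1.11, SE 0.186, adjusted p = 0.00316). Neither gene's groups overlapped.

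The S phase genes moved less. Pclaf, a clamp-associated factor, rose from 26.8, 20.6 and 28.7 CPM to 49.4, 62.0 and 67.8 CPM (1.25, SE 0.139, adjusted p = 0.0002, edgeR). The 3 genes of nucleotide supply also rose, Tk1 by 0.83, the ribonucleotide reductase subunit Rrm2 by 0.70 and thymidylate synthase (Tyms) by 0.57. Pcna had 116, 96.1 and 106 CPM in EC-SAL and 97.4, 87.8 and 108 CPM in EC-OVA, and the groups overlapped (-0.11, adjusted p = 0.48). Of the helicase subunits, Mcm2 (0.14), Mcm3 (-0.03), Mcm5 (0.47) and Mcm6 (0.32) were not called, nor were the licensing inhibitor geminin (Gmnn, 0.67, adjusted p = 0.0782), cyclin E2 (Ccne2, 0.32) and Uhrf1 (0.46).

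**Figure D3:**
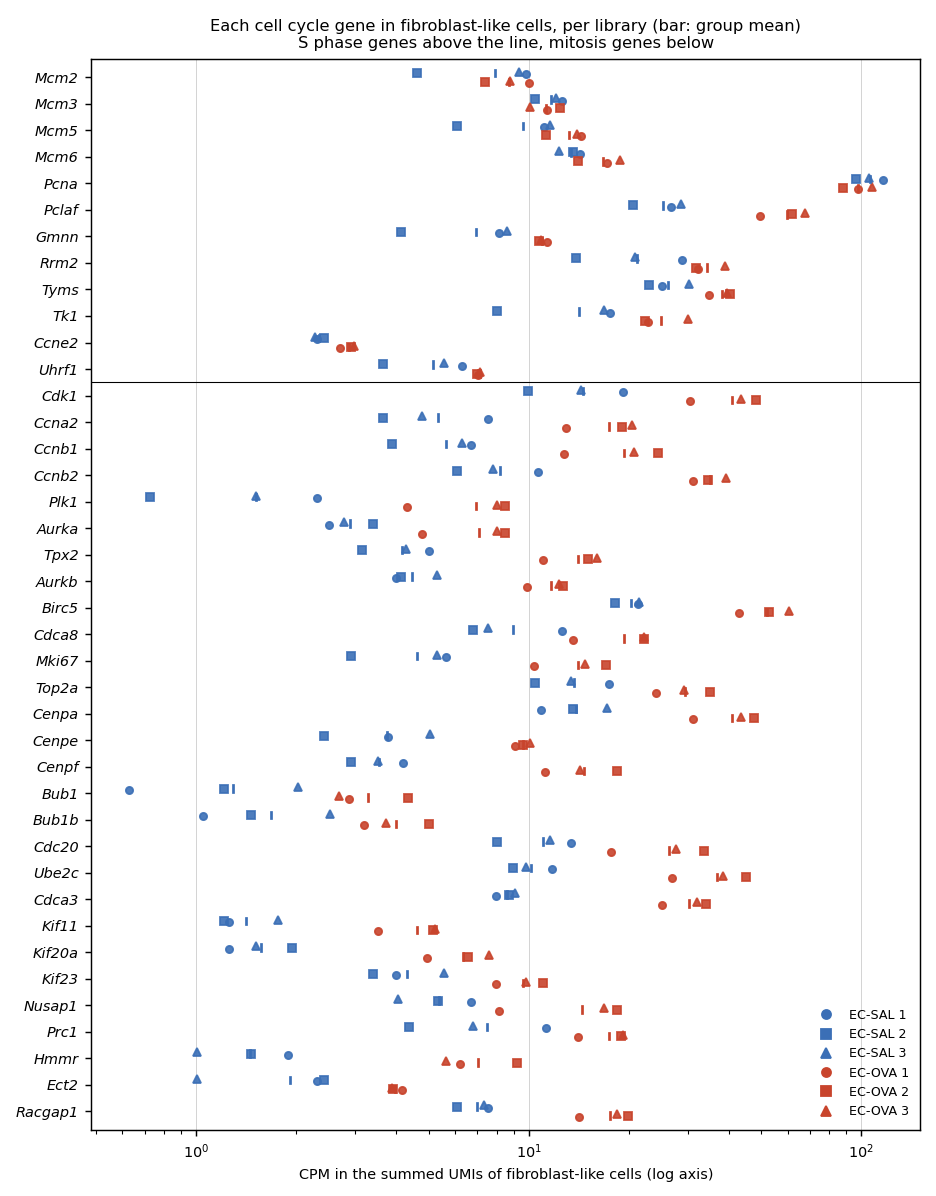
CPM (log axis) of each of the 40 genes in the summed UMIs of fibroblast-like cells, 1 point per library. The EC-OVA points of Ccnb2 (31.1 to 39.3 CPM) stand clear of its EC-SAL points (6.07 to 10.7 CPM), whereas those of Pcna lie among each other.

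The promoters of the members that rose most together in fibroblasts are shown with the motifs named above. They are taken by fitted rise, which for Hmmr and Plk1 rests on EC-SAL values partly below the minimum of the filter. RefSeq start sites on build GRCm38.p6 gave 37 windows for 34 of the 40 genes, each from 250 bases before to 50 bases after the start. Gmnn, Ccne2, Ccna2, Tpx2, Aurkb and Kif20a had no entry. On either strand, a CHR, which reads TTTGAA or in a second form TTCGAA, and on the opposite strand shows as TTCAAA in its first form, was found in 84.6% of 26 windows of mitosis genes, 9.09% of 11 windows of S phase genes and 19.2% of all 32851 promoter windows of the table. A CCAAT box (ATTGG on the other strand) was found in 92.3%, 81.8% and 37.4%. The E2F motif TTTNNCGC was found in 7.69% of the mitosis windows, 63.6% of the S phase windows and 5.17% of all. Such matches describe the letters only. The 6 windows below are those of the genes with the largest rises that have an entry, written 5′ to 3′ in the direction of transcription, with CHR and CCAAT matches in capitals. Hmmr lies at chr11:40733388-40733687 (minus strand), Plk1 at chr7:122159185-122159484 (plus), Ccnb2 at chr9:70421505-70421804 (minus), Cenpf at chr1:189688037-189688336 (minus), Ube2c at chr2:164769679-164769978 (plus) and Cdca3 at chr6:124829926-124830225 (plus).
Hmmr: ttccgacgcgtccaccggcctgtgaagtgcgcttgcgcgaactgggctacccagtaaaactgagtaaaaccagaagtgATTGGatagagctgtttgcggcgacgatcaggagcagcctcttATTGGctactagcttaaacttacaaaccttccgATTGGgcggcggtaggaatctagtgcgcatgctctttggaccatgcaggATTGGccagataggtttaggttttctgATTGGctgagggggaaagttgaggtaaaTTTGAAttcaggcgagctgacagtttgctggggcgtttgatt
Plk1: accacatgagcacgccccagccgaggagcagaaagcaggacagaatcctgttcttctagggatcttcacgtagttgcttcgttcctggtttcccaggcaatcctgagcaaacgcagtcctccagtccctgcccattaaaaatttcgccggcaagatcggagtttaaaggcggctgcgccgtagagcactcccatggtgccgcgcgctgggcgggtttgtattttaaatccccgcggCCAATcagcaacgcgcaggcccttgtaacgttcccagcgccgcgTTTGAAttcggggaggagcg
Ccnb2: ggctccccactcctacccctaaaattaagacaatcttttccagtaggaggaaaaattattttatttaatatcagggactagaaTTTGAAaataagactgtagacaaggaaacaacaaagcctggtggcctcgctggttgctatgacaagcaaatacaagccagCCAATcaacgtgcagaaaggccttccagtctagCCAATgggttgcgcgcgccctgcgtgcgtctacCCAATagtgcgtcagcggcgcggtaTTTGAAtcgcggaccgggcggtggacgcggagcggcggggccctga
Cenpf: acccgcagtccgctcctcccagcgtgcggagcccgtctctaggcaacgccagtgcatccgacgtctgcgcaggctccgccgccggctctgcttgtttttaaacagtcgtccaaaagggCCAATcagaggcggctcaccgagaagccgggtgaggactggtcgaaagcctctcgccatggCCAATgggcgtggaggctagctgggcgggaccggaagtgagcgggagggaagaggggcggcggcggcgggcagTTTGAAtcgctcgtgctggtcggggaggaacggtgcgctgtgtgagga
Ube2c: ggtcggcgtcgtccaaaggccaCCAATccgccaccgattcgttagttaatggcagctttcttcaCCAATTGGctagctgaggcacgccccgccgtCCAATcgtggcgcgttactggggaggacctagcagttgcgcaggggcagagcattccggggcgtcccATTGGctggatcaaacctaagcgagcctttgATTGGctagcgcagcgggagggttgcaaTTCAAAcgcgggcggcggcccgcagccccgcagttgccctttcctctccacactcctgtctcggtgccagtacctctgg
Cdca3: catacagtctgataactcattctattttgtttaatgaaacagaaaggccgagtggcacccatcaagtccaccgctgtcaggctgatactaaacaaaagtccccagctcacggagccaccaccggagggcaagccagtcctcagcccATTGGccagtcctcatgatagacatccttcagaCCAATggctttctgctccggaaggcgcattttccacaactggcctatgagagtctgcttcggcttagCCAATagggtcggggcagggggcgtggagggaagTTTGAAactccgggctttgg
A CHR begins at base 9 after the start in Hmmr, 31 in Plk1, 5 in Ccnb2, 3 in Cenpf and 31 in Cdca3, and 29 bases before it in Ube2c. Ccnb2 holds another one 167 bases before the start. The 8 capitals in a row in Ube2c are CCAAT matches on both strands that overlap.

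The rise in fibroblasts was spread over more than 1 fibroblast cluster. Cluster 2 (1080 cells), led by Lrrc15, Coch and Acta2, had the highest share of cells with mitosis transcripts, at 10.2%, 9.21% and 8.21% in EC-SAL and 17.6%, 22.7% and 24.3% in EC-OVA. Cluster 5 (1944 cells), led by Ptx3, Mfap5 and Dpt, had 2.97%, 2.56% and 3.59% against 8.19%, 6.35% and 7.92%. In both clusters every EC-OVA library was above every EC-SAL library. Cluster 6 (1971 cells), in which Col1a1, Cpz and Cilp led, had 2.54%, 0.987% and 0.971% against 3.77%, 3.61% and 2.15%, and there the groups overlapped. Lrrc15 and Acta2 are known from matrix-producing and contractile fibroblasts, and cluster 2 owes its class name to a single fibroblast marker, Col1a1, among its 10 leading genes.

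Fitted on their own, 16 members rose in cluster 2 (0.485% of all genes tested there were called higher) and 19 in cluster 5 (5.63%), while 2 rose in cluster 6 (1.27%). Many members passed the filter there only through the EC-OVA libraries, so these numbers are a description. Mki67 rose by 1.84 in cluster 2 (adjusted p = 0.03) and by 1.34 in cluster 5 (edgeR), and Ccnb1 by 1.76 and 2.20. In cluster 5 Pcna was lower (log2 fold change -0.36, adjusted p = 0.0476). Without cluster 2, the share of fibroblasts with mitosis transcripts was 1.90% ± 0.435 in EC-SAL and 4.85% ± 0.440 in EC-OVA, and 27 members rose (5.18% of all genes tested were called higher). The clusters were looked at separately after the data had been seen.

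**Figure D4:**
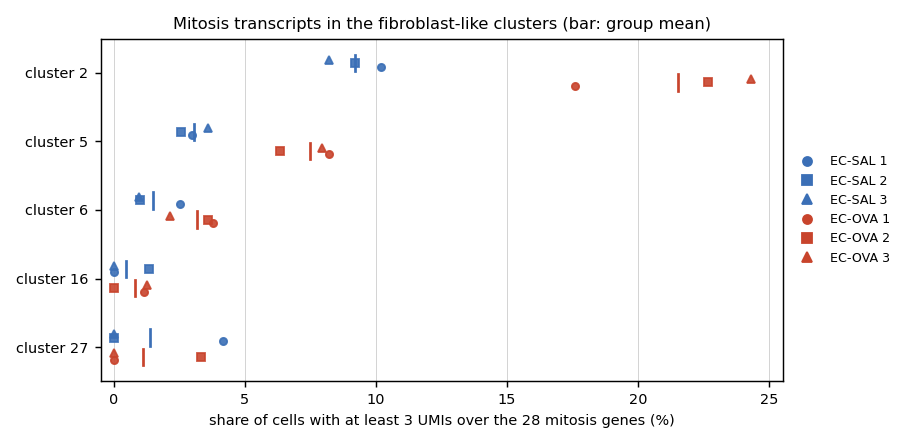
Share of cells (percent) with at least 3 UMIs over the 28 mitosis genes in the 5 fibroblast-like clusters; points are libraries and bars group means. Cluster 2 lies between 8.21 and 10.2% in EC-SAL and between 17.6 and 24.3% in EC-OVA, and clusters 16 and 27 stay below 5% in all libraries.

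Marker lists of other cell types also differed in the fibroblast sums. The 9 fibroblast markers summed to 52715 to 52995 CPM in EC-SAL and 49097 to 53043 CPM in EC-OVA. The 10 basal keratinocyte markers, 9 with a UMI in EC-SAL and all in EC-OVA, summed to 335 to 432 CPM and 128 to 146 CPM. The 13 hair matrix markers, of which Shh was at 0 in both groups, summed to 41.4 to 59.0 CPM and 20.5 to 22.0 CPM. The 12 lymphoid markers summed to 2.91 to 5.29 CPM in EC-SAL and 7.39 to 8.61 CPM in EC-OVA (9 and 12 of them with a UMI). The 12 macrophage markers summed to 18.4 to 22.2 CPM and 30.4 to 38.3 CPM (10 and 11 with a UMI). The 9 upper hair follicle markers, among which Postn was highest, summed to 2818 to 3084 CPM and 3556 to 3872 CPM, and the 12 suprabasal markers to 2723 to 2949 CPM and 1972 to 2287 CPM. The 10 sebocyte markers summed to 624 to 695 CPM and 573 to 612 CPM. The 12 genes of the AP-1 early response to tissue dissociation summed to 10279 to 11145 CPM in EC-SAL and 7676 to 8843 CPM in EC-OVA. The part of these transcripts in the rise of the cell cycle genes was not tested.

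Of a list of 107 further cell cycle genes, 95 were tested in fibroblasts. Of all genes tested there, 4.73% were called higher and 8.19% in either direction. Of the 95, 36 rose and 3 fell (edgeR). Most of the rises, 28 of 37 tested, were among other mitosis genes. The largest were Cdc25c, the phosphatase that activates Cdk1 (from 0.480 ± 0.26 to 4.18 ± 1.8 CPM, 3.14, adjusted p = 0.00516), and the centrosome kinase Nek2 (2.21). Cep55, which acts at abscission (2.09), and Foxm1, the activator named above (1.90 ± 0.595 to 7.52 ± 0.572 CPM, 2.01, adjusted p = 0.000713), followed. Of 30 other genes of replication 3 rose. The 3 that fell were Cdkn1a, cyclin D3 (Ccnd3, -0.28) and the antiproliferative gene Btg2 (-0.24). Cdkn1a, which encodes the Cdk inhibitor p21, went from 1178 ± 14.9 to 901 ± 73.6 CPM (-0.37, adjusted p = 0.00298, edgeR). Of 11 Cdk inhibitors and arrest genes tested, 3 rose, by up to 1.29, and 2 fell, so this group had no common direction. With 3 of 95 genes, the falls were near the share of all genes called lower and are not read as a result about the list. Cyclin D1 (Ccnd1) had 56.2 ± 3.39 and 63.4 ± 2.42 CPM (0.19, adjusted p = 0.155) and the inhibitor Cdkn1c 133 ± 7.38 and 118 ± 10.6 CPM (-0.16, adjusted p = 0.266), and neither was called.

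Lymphatic endothelial cells, led by Ccl21a, Lyve1 and Mmrn1, showed a small number of mitotic cells that came mostly from EC-OVA. Cycling shares were 21.0%, 25.2% and 21.8% in EC-SAL (138, 111 and 110 cells) and 33.9%, 26.7% and 35.0% in EC-OVA (112, 116 and 120 cells), with means of 22.7% ± 2.24 and 31.9% ± 4.5. The groups did not overlap, and EC-OVA library 2 was the nearest to EC-SAL. By mitosis genes alone 0, 4 and 0 cells passed in EC-SAL and 6, 7 and 12 in EC-OVA, where the 0 counts allow shares of up to 2.17% and 2.73%. Depth was higher in EC-OVA (4296 against 2993 UMIs, mean of library medians). Thinned to 2000 UMIs, which left out 18 to 30.9% of cells in EC-SAL and 13.3 to 18.1% in EC-OVA, the shares over the 40 genes were 4.81% and 10.3%.

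The summed mitosis genes in lymphatic cells had 54.6, 211 and 60.2 CPM in EC-SAL and 804, 283 and 823 CPM in EC-OVA, without overlap. The S phase genes had 353, 438 and 379 CPM against 424, 319 and 499 CPM and overlapped. Only 10 members passed the filter, 3 of which reached its minimum in every EC-SAL library, and 5 were called higher, where 0.402% of all genes tested were. Since most passed through the group in which they are high, the count is a description.

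Other lists moved with the groups in the lymphatic sums. The 12 suprabasal markers summed to 1166 to 1392 CPM in EC-SAL and 523 to 665 CPM in EC-OVA, and the 10 basal markers, with Krt6b at 0, to 473 to 564 CPM and 338 to 406 CPM. The AP-1 dissociation genes summed to 10113 to 13132 CPM and 8584 to 9328 CPM. The 6 mast cell markers, with Cpa3 and Ms4a2 at 0, had no UMI in EC-SAL and 2.23 to 8.86 CPM in EC-OVA. The cartilage, Schwann, melanocyte and basophil lists were also lower in EC-OVA without overlap, and the vascular list was higher (2442 to 2578 against 2687 to 2966 CPM). Of the 6 basophil genes only Gata2 had a UMI, so that sum is the level of 1 gene and not a basophil profile. The part of these lists in the result was not tested.

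Ube2c had 0, 17.9 and 2.51 CPM in EC-SAL lymphatic cells and 87.2, 28.1 and 74.6 CPM in EC-OVA (log2 fold change 3.13, SE 0.571, adjusted p = 0.00881, edgeR). Birc5, the passenger complex subunit survivin, had 1.95, 15.9 and 0 CPM against 63.4, 25.1 and 71.3 CPM (3.05, SE 0.564, adjusted p = 0.00965). Top2a had 0, 19.9 and 0 CPM against 39.7, 34.0 and 44.6 CPM (2.45, SE 0.562, adjusted p = 0.0437). EC-SAL library 2 was the highest control and EC-OVA library 2 the lowest treated library for these 3 genes, and the groups did not overlap. With each library left out in turn, the fitted log2 fold change ran from 2.49 to 5.61 for Ube2c, 2.58 to 5.39 for Birc5 and 1.82 to 7.64 for Top2a, highest in each case without EC-SAL library 2 and lowest without EC-SAL library 1, where none of the 3 was called. Cenpa rose by 2.05 (SE 0.333, adjusted p = 0.00364) and Cdc20 by 1.85 (SE 0.393, adjusted p = 0.0299). Pcna had 217, 231 and 218 CPM against 189, 143 and 207 CPM (-0.30, adjusted p = 0.482).

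Mki67 had 2 UMIs in all EC-SAL lymphatic cells and 29 in EC-OVA, and Ccnb1 1 and 46 UMIs, and neither passed the filter. The 5 calls rested on few cells: without EC-SAL library 1 none remained, without EC-OVA library 2 there were 12, and DESeq2 called 2. Of the further list only Pttg1, securin, was called (13.7 ± 5.45 to 44.2 ± 15.8 CPM, 1.63, adjusted p = 0.0329, edgeR). Ccnd1 had 49.5 ± 10.9 and 88.0 ± 27.3 CPM (0.87, adjusted p = 0.109), and Cdkn1a (-0.27) and Cdkn1c (-0.61) were not called.

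In lymphoid cells, led by Cd3g, Trbc1 and Cxcr6, the groups overlapped and no member was called. The cycling shares were 17.2%, 24.4% and 9.30% in EC-SAL (64, 45 and 43 cells) and 11.4%, 15.1% and 14.6% in EC-OVA (88, 93 and 82 cells). By mitosis genes the means were 5.60% ± 2.89 and 8.37% ± 2.33, and the summed mitosis genes had 774, 320 and 235 CPM against 700, 1106 and 887 CPM, both with overlap. After thinning, which left out 45.3 to 57.0% of cells, the shares were 17.1% and 22.6%. Of 6 members tested, none was called (2 at an unadjusted p under 0.05) and DESeq2 called none either (1 unadjusted). In these cells 1.48% of all genes tested were called.

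The 2 members below the unadjusted threshold were Cenpa, at 66.2, 72.3 and 49.0 CPM in EC-SAL lymphoid cells and 117, 149 and 77.3 CPM in EC-OVA (0.89, adjusted p = 0.325), and Birc5, at 86.0, 10.3 and 9.80 CPM against 84.5, 104 and 103 CPM (1.20, adjusted p = 0.325). Pcna had 265, 289 and 127 CPM against 169, 129 and 304 CPM (-0.18, adjusted p = 0.941). Mki67, at 13.2, 10.3 and 0 CPM against 14.1, 59.5 and 30.9 CPM, was too low to be tested. So was Top2a, at 79.4, 41.3 and 29.4 CPM against 47.0, 84.3 and 56.7 CPM. Ccnb1 had no UMI in EC-SAL and 9.39, 9.92 and 5.16 CPM in EC-OVA. Pttg1 was the 1 gene of the further list that rose (31.2 ± 15.6 to 100.04 ± 11.1 CPM, 1.80, adjusted p = 0.0282, edgeR), and Cdkn1a was not called (-0.28).

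Cycling lymphoid cells carried T cell receptor transcripts. The beta chain constant gene Trbc1 had a UMI in 20 of 26 cycling and 64 of 126 other cells in EC-SAL and in 23 of 36 and 130 of 227 in EC-OVA. The alpha chain constant gene Trac had one in 9 of 26 and 16 of 126 cells in EC-SAL and in 17 of 36 and 74 of 227 in EC-OVA. Trdc, of the delta chain, had 6 of 26 and 44 of 126, then 8 of 36 and 46 of 227. In EC-SAL that share was lower in cycling cells, whereas the gamma chain constant genes had higher shares in cycling cells in both groups. Tcrg-C1 had 5 of 26 and 17 of 126, then 5 of 36 and 25 of 227. Tcrg-C2 had 3 of 26 and 10 of 126, then 5 of 36 and 15 of 227. Cd163l1, also of the gamma-delta list, had 4 of 26 and 9 of 126, then 0 of 36 and 12 of 227. Its direction thus differed between the groups. The natural killer receptor Ncr1 was rare in all of them, with 0 of 26 and 1 of 126, then 0 of 36 and 4 of 227. Gata3, a transcription factor of T helper 2 and innate lymphoid cells, had 14 of 26 and 50 of 126, then 17 of 36 and 88 of 227. Il1rl1, listed with it, had 0 of 26 and 10 of 126, then 3 of 36 and 15 of 227. Cd4 had 2 of 26 and 5 of 126, then 9 of 36 and 39 of 227. Of the regulatory T cell list, Foxp3 had 1 of 26 and 3 of 126, then 1 of 36 and 16 of 227. Ctla4 had 0 of 26 and 7 of 126, then 6 of 36 and 48 of 227. Il2ra had higher shares in cycling cells in both groups and Ikzf2 lower ones. Cycling cells were deeper than others in every library, which moves all such shares. EC-OVA library 3 carried 2676 CPM of the 9 fibroblast markers in its lymphoid cells, against 176 to 371 CPM in the other libraries, with Pdgfra and Cygb at 0 in both groups. The 10 basal keratinocyte markers, with Krt6b at 0, summed in lymphoid cells to 537 to 774 CPM in EC-SAL and 139 to 197 CPM in EC-OVA. The 12 suprabasal markers (10 and 9 with a UMI) summed to 4056 to 5517 CPM and 2367 to 3236 CPM. The part of these lists in the lymphoid values was not tested.

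Basal keratinocyte-like cells, led by Krt15, Krt5 and Krt14, had cycling shares that overlapped between the groups. They were 50%, 48.5% and 47.4% in EC-SAL (628, 598 and 553 cells) and 53.9%, 47.1% and 56.3% in EC-OVA (178, 187 and 167 cells), a log2 ratio of 0.11. By mitosis genes they were 26.4% ± 0.199 and 29.5% ± 4.77. All 40 members were tested and edgeR called none, with 9 at an unadjusted p under 0.05, all of them higher in EC-OVA. The log2 fold change was positive for 36 of the 40, with a median of 0.25 against 0.005 over all genes tested. The share of all genes at that unadjusted level is not given here, for this or the other classes. DESeq2 called none, with 5 unadjusted. Of all genes tested, 0.0639% were called, so few genes of any kind passed in this class.

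Mki67 had 38.9, 38.4 and 38.2 CPM in EC-SAL basal cells and 51.7, 34.0 and 50.1 CPM in EC-OVA (0.25, SE 0.128, adjusted p = 0.625, edgeR). Top2a had 86.9, 71.7 and 79.5 CPM against 100.2, 86.3 and 124 CPM (0.39, SE 0.105, adjusted p = 0.231). Ccnb1 had 60.7, 50.3 and 46.2 CPM against 44.2, 37.8 and 105 CPM (0.25, SE 0.249, adjusted p = 0.835). The 3 EC-SAL libraries of Mki67 were nearly equal, and EC-OVA library 3 was far above the others for Ccnb1. Without that library the direction of Ccnb1 turned (-0.32). Pcna had 222, 184 and 192 CPM against 206, 193 and 229 CPM (0.09). Of the further list none was called, with Ccnd1 at 102 ± 5.76 and 74.5 ± 16.6 CPM (-0.43, adjusted p = 0.321), Cdkn1a at 0.09 and Cdkn1c at -0.20.

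Hair matrix cells, a single cluster, had cycling shares of 83.5%, 79.4% and 80.2% in EC-SAL (170, 170 and 131 cells) and 80.6%, 78.9% and 84.5% in EC-OVA (103, 95 and 84 cells). The groups overlapped, with a log2 ratio of 0.01. After thinning, which left out 14.7 to 16.0% of EC-SAL and 7.8 to 11.9% of EC-OVA cells, the shares were 73.6% and 66.1%, with EC-OVA below, and by mitosis genes alone, unthinned, 64.3% and 60.4%, with overlap. All 40 members were tested and edgeR called none, with 6 at an unadjusted p under 0.05, all lower in EC-OVA (DESeq2 0, with 2 unadjusted). The log2 fold change was positive for 11 of the 40, with a median of -0.11 against 0.009 over all genes tested. Of all genes tested 0.0274% were called.

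Ccnb1 had 153, 132 and 107 CPM in EC-SAL hair matrix cells and 88.9, 74.1 and 101 CPM in EC-OVA (-0.56, SE 0.149, adjusted p = 0.603, edgeR). Every EC-OVA library was below every EC-SAL library, though the closest were 101 and 107 CPM. Mki67 had 110.0, 87.7 and 73.3 CPM against 94.2, 72.9 and 103 CPM (0.00). Top2a had 195, 177 and 187 CPM against 206, 122 and 157 CPM (-0.20). The groups overlapped for both, and for Pcna, at 271, 274 and 250.1 CPM against 299.8, 246 and 322 CPM (0.13). The other 5 below the unadjusted threshold were Aurka (-0.72), Ccnb2 (-0.40), Cdca8 (-0.37), Cdc20 (-0.37) and Cenpa (-0.29). Ccnd1 (-0.42), Cdkn1a (0.57) and Cdkn1c (-0.62) were not called.

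**Figure D5:**
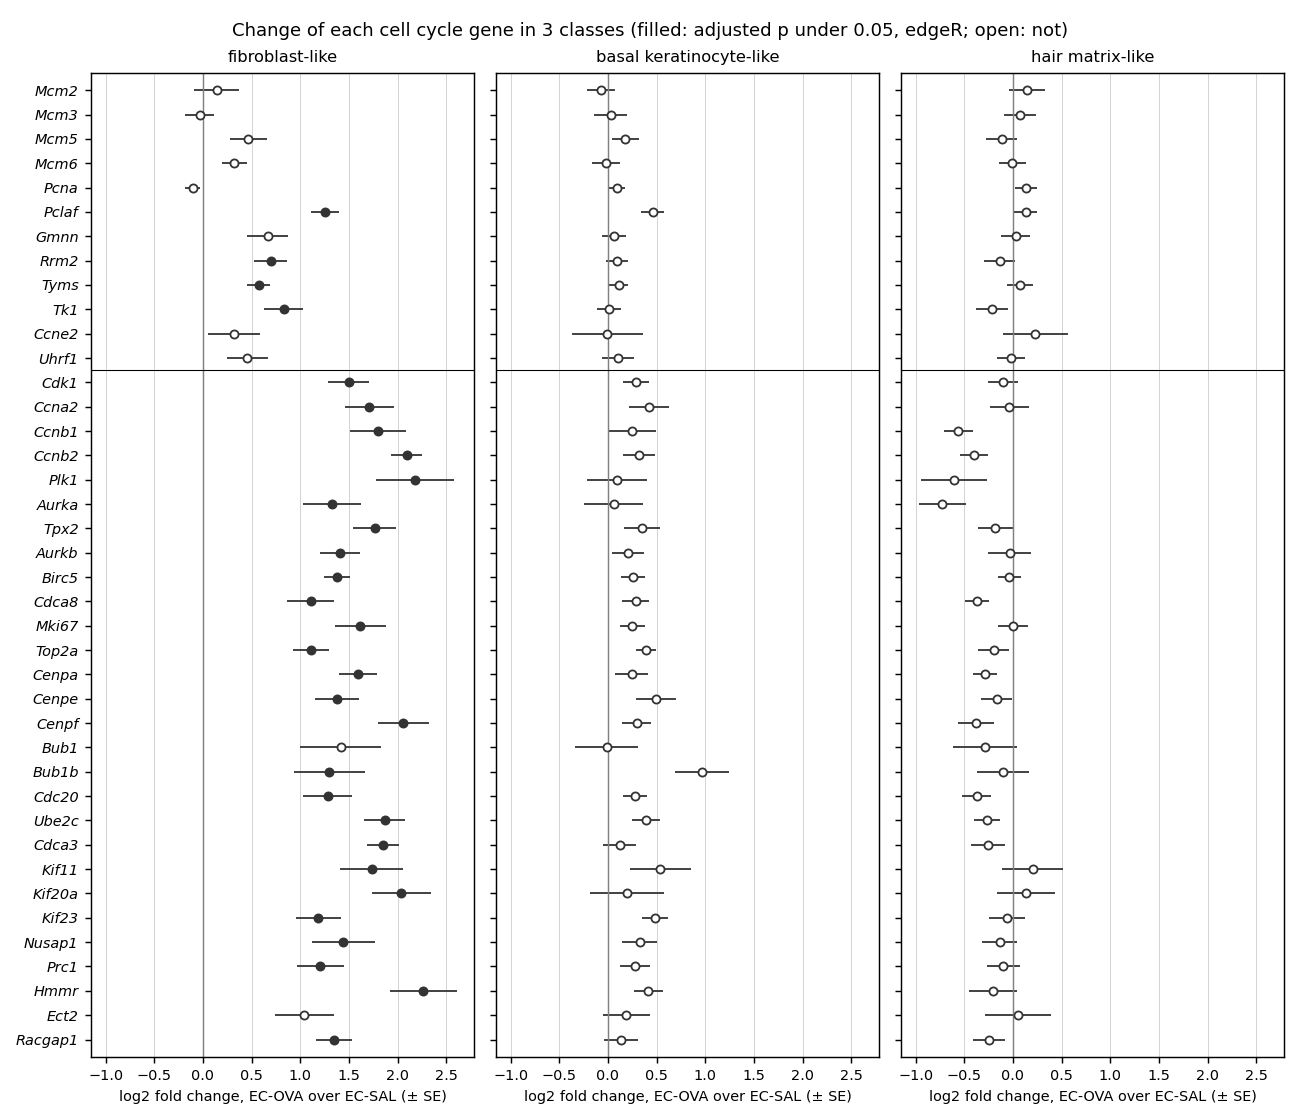
Log2 fold change of each of the 40 genes, EC-OVA over EC-SAL, with its standard error, in the 3 classes in which all were tested; filled points passed an adjusted p of 0.05 in edgeR. Filled points are seen in fibroblasts, from 0.57 (Tyms) to 2.26 (Hmmr), and none in basal keratinocyte or hair matrix cells.

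The difference between classes was tested itself, in 1 fit over both classes with the library as a block. The change in fibroblasts exceeded that in basal keratinocytes for 26 of the 40 genes and was below it for none, where 2.04% of all genes tested were higher in fibroblasts. Against hair matrix cells it was also 26 of 40, where 1.15% were. Both counts include Hmmr, Plk1 and Kif20a, which did not reach the minimum of the filter in every EC-SAL fibroblast library. Counts without such members are not given here, so their part in both counts is a description. For lymphatic endothelium against basal keratinocytes the change was larger in lymphatic cells for 10 of 38 genes tested, where 0.284% of all genes were. Of these 10, Cenpf, Aurka, Ccnb2, Cdk1 and Ccnb1 had not passed the filter in lymphatic cells alone, with 1 to 8 UMIs each in EC-SAL, and entered this fit with the basal libraries, so the count is a description. The difference was 1.35 for Mki67 (adjusted p = 6.66e-05, edgeR) and 1.55 for Ccnb1 (adjusted p = 1.33e-06) between fibroblasts and basal cells, while Pcna did not pass in any of the 3 contrasts (-0.20, -0.20 and -0.36).

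Pericyte- and smooth muscle-like cells had been set as a background of cells that should hardly divide. They were added to the named classes after the data were seen, and had more cycling cells in EC-OVA. What a rise in a background class means for the rises in fibroblasts and lymphatic endothelium was not tested. The shares were 11.3%, 8.55% and 12% in EC-SAL (141, 117 and 125 cells) and 16.9%, 18.2% and 17.6% in EC-OVA (142, 137 and 108 cells), without overlap. After thinning, which left out 24.0 to 31.6% and 13.9 to 14.1% of cells, they were 2.09% and 6.98%. By mitosis genes 1, 0 and 1 cells passed in EC-SAL and 4, 7 and 7 in EC-OVA, where the 0 count allows a share of up to 2.56%. Of 5 members tested 2 rose, Cdk1 (9.46, 5.96 and 2.74 against 22.9, 69.3 and 38.6 CPM, 2.73, SE 0.573, adjusted p = 0.00738, edgeR) and Cdc20 (7.10, 8.94 and 21.9 against 27.8, 51.1 and 46.4 CPM, 1.68, SE 0.426, adjusted p = 0.0284). Of all genes tested there 1.94% were called higher. Neither Cdk1 nor Cdc20 reached the minimum of the filter in every EC-SAL library. Both passed through the group in which they are high, so the count is a description.

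Most members were too low to be tested in pericytes, Mki67 with 2 UMIs in EC-SAL and 42 in EC-OVA, Top2a with 1 and 51, and Ccnb1 with 3 and 35. Pcna had 185, 158 and 181 CPM against 144, 180 and 189 CPM (-0.07). Without EC-SAL library 2, or without EC-OVA library 2 or 3, no member was called, and without EC-OVA library 1 there were 9. Cdkn1a fell in pericytes (2167 ± 213 to 1557 ± 124 CPM, -0.51, adjusted p = 0.0049), and Ccnd1 (0.44) and Cdkn1c (-0.73) were not called. The 9 fibroblast markers, all with a UMI in both groups, summed there to means of 3135 CPM in EC-SAL and 4891 CPM in EC-OVA. The 12 macrophage markers, of which Adgre1, Ly6c2 and Ccr2 were at 0, summed to 399 and 988 CPM, and the AP-1 dissociation genes to 14767 and 12160 CPM. The 10 basal markers summed to 529 and 160 CPM and the 12 suprabasal markers to 1478 and 842 CPM. The part of these lists in the values was not tested.

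Of 19 classes, 6 had a higher cycling share in every EC-OVA than in every EC-SAL library and none a lower one. Beside fibroblasts, lymphatic endothelium and pericytes, the classes with a higher share were vascular endothelium, Schwann and skeletal muscle cells. The latter 2 rest on few cycling cells, 8 of 381 and 10 of 234 in Schwann-like and 1 of 55 and 4 of 62 in skeletal muscle-like cells, and their thinned shares overlapped. In vascular cells the share was 30% ± 1.16 in EC-SAL and 38.2% ± 2.62 in EC-OVA, but after thinning it was 12.6% ± 3.89 and 7.35% ± 0.955. Their mitosis genes took 191 ± 93.6 CPM in EC-SAL and 140 ± 7.11 CPM in EC-OVA, and their median depth was 3384 and 5061 UMIs. By the mitosis genes alone, fibroblasts, lymphatic endothelium and pericytes stayed higher without overlap, whereas melanocyte-like cells were lower. The melanocyte shares were 6.25%, 20.6% and 7.69% in EC-SAL (12 of 105 cells) and 0%, 0% and 4% in EC-OVA (1 of 54 cells).

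In all kept cells the further list gave 42 of 107 genes lower and 4 higher in EC-OVA (edgeR). Of all genes tested there, 22.1% were called lower. The share called higher is not given here, so the 4 rises have no background beside them. The largest falls were those of the origin factor Orc1 (-0.96), Cdca7 (-0.68), the flap endonuclease Fen1 (-0.66) and cyclin D2 (Ccnd2, -0.54). The 4 that rose were Cdkn2a (1.85), E2f3 (0.46), Cdkn2c (0.33) and Gas1 (0.26). Ccnd1 (-0.30), Cdkn1a (-0.12) and Cdkn1c (-0.30) were also called lower, with adjusted p of 0.00375, 0.0498 and 0.0413.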

How the data were processed

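The authors deposited, for each library, a matrix of whole-number UMI counts per gene and barcode, with no normalization. The counts were made with Cell Ranger 3.1.0, per the file headers. STAR and the build mm10 are named in the submitters' processing notes. The annotation release is not given in the sources used here. The lowest total of a deposited barcode was 500 UMIs.

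Kept barcodes had 300 or more genes and at most 15% mitochondrial UMIs. The highest doublet scores (Scrublet, as in scanpy 1.11.5) were removed, at 0.8% per 1000 barcodes. The 40 genes and the further cell cycle list were kept out of the 2000 variable genes. Cells were clustered on 40 principal components and 20 neighbours (Leiden, resolution 1.0). A cluster took a class name when 3 or more markers of that class were 2-fold above the median of the clusters and detected in 25% of its cells, and no class had more markers among its 10 leading genes.

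UMIs were summed per class and library (in fibroblasts 3968069 to 7174234, in lymphatic endothelium 398812 to 897613, in lymphoid cells 96845 to 212931 UMIs). After filterByExpr and TMM scaling the sums went into the quasi-likelihood test of edgeR 4.0.16. The Benjamini-Hochberg adjustment covered all genes tested in a class, and 0.05 was the threshold. The test was checked on simulated data. A share of cells was not tested. Alternatives were DESeq2 1.42.0, other scaling and filters, other settings for clusters and cells, and each library left out.

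The genes named follow a rule: in each class up to 8 members past the threshold with the largest change, Mki67, Top2a, Ccnb1 and Pcna, up to 4 genes of the further list in each direction, and Ccnd1, Cdkn1a and Cdkn1c. Other members are given as accounts of their groups, and those below an unadjusted threshold were named after their values were seen. The members and lists were chosen with earlier results of these data known. Replicate numbers were checked as pairs: deviations from the group means correlated at 0.118, 0.0536 and -0.0467 for numbers 1 to 3, so they were not used as pairs.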

Additional observations from a re-analysis of the deposited data

Results flagged for a closer look

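A test of the difference itself marked the change between groups as unequal between classes for several of the genes followed in every class (edgeR, 1 fit over both classes, 3 EC-SAL and 3 EC-OVA libraries). Between fibroblasts and basal keratinocytes the log2 fold changes differed by 1.35 for Mki67 (adjusted p = 6.66e-05), 0.71 for Top2a (adjusted p = 0.0018) and 1.55 for Ccnb1 (adjusted p = 1.33e-06). Between fibroblasts and hair matrix cells they differed by 1.65 for Mki67 (adjusted p = 0.00265), 1.35 for Top2a (adjusted p = 0.00259) and 2.38 for Ccnb1 (adjusted p = 1.23e-05). Between lymphatic endothelium and basal keratinocytes they differed by 2.10 for Top2a (adjusted p = 0.0122) and 4.45 for Ccnb1 (adjusted p = 0.000687). Ccnb1 had only 1 UMI in the EC-SAL lymphatic cells and entered this fit with the basal libraries, so the size of its fitted difference is uncertain. Top2a had UMIs in lymphatic cells of only 1 EC-SAL library. Both lymphatic differences are therefore a description. In all 8 cases the first class had the higher change.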

How the results depend on the processing

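The fibroblast count of 30 members was between 23 and 30 with each library left out and 19 with doublets kept, where the cluster led by Lrrc15 had no class name. There Hmmr (1.18), Kif20a (0.82) and Mki67 (0.60) were not called. The other counts with a library left out were 0 to 12 in lymphatic endothelium, 0 to 2 in lymphoid, 0 to 1 in basal, 0 to 0 in hair matrix, 0 to 9 in pericyte-like and 6 to 12 in all kept cells. In lymphatic endothelium DESeq2 called 2, no filter 16 and doublets kept 3. Without the filter 1 member was called in lymphoid and 4 in basal cells. In pericyte-like cells the counts were 1 with DESeq2, 13 without the filter, 8 with doublets kept and 1 at 10% mitochondrial UMIs. For counts under an alternative setting the share of all genes called is not given here, so a count may move with all genes. Causes were not tested.

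The log2 ratio of the cycling share kept its direction in fibroblasts and lymphatic endothelium. It was 0.32 and 0.23 at 2 UMIs, 1.06 and 1.16 at 5 UMIs, 0.98 and 1.09 after thinning, 1.30 and 2.57 for the mitosis genes, and 0.98 and 1.07 without Pcna, a set chosen after seeing the data. In lymphoid cells it was 0.40 after thinning and 0.58 for the mitosis genes, in hair matrix cells -0.15 and -0.0893. Over all kept cells the same class mix turned it to 0.18. With a library left out it ran from 0.52 to 0.63 in fibroblasts, 0.42 to 0.60 in lymphatic, -0.61 to 0.05 in lymphoid, 0.05 to 0.18 in basal, -0.02 to 0.03 in hair matrix and -0.16 to -0.08 in all kept cells.

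Single genes that changed sign were uncalled: Ccnb1 in basal cells (-0.0215 at 10% mitochondrial UMIs, -0.32 to 0.47 with a library left out), Mki67 in hair matrix cells (-0.0456 without the filter, -0.0246 when clustered with the cell cycle genes, -0.11 to 0.13 with a library left out), and Pcna in lymphoid (-0.58 to 0.0436) and pericyte-like cells (-0.14 to 0.0695) with a library left out. With the replicate block the counts were 31 in fibroblasts, 5 in lymphatic endothelium, 2 in pericyte-like, 11 in all kept and 0 in the other classes, and same-numbered libraries did not correlate best with each other throughout. The few cells in lymphatic, lymphoid and pericyte-like classes limit what can be tested there.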
